A study of Mus musculus with 12 samples.

Results

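Cell cycle genes were followed through bulk RNA-seq libraries of macrophages sorted from mouse tumours. They are 39 named genes of DNA replication and mitosis, listed by name, with earlier results of these data known. All 39 stood among the 24346 gene symbols of the tables, and all 39 were among the 11808 genes that reached 1 FPKM in 3 or more libraries, over which every test was run. FPKM is the number of fragments scaled to the length of the transcript and to the size of the library. The groups were RFP+ and RFP- cells of B16F10 tumours and RFP+ and RFP- cells of MC38 tumours, with 3 libraries each. B16F10 is a melanoma line and MC38 a colon adenocarcinoma line. All mice carried Arg1-RFP, a red fluorescent reporter of arginase 1. All cells had been gated as CD45+ CD11b+ F4/80+ MHCII+ and as negative for CD90.2, B220, NK1.1, Ly6G and Ly6C, a gate for tumour-associated macrophages. No treatment is named in the labels, and strain, age and time after tumour injection were not given in the sources used.

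A dividing cell copies its DNA in S phase and parts the copies in mitosis. In G1 the MCM helicase is loaded onto replication origins by CDC6 and CDT1, which geminin later blocks. E2F factors, freed from the retinoblastoma protein, drive the genes for this loading and for nucleotide supply. A later set of genes, for the B-type cyclins, the mitotic kinases and the spindle, is driven by B-MYB and FOXM1 together with the MuvB complex, which binds a promoter element called the cell cycle genes homology region, or CHR. Macrophages in tumours come largely from blood monocytes, and some divide in the tissue. Tumour cells divide throughout, so the same genes mark them too.

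The promoters of 32 of the 39 genes were found in the RefSeq table of build GRCm38.p6, as windows of 250 bases before to 50 bases after the first listed start. For Cdc6, E2f1 and Aurka this window lay wholly within the RefSeq gene. Bases before the outermost start of these genes were not searched, and the E2F match of Cdc6 lies inside the gene. Most of the window of Mcm7 also lay within its RefSeq gene, which reaches base 138172111, and so did its E2F matches. The motifs searched, on both strands, were the CHR letters TTTGAA and TTTAAA, the CCAAT box, and 3 spellings of the E2F site, TTTGGCGC, TTTCGCGC and TTTCCCGC. E2F matches stood mostly in replication genes and TTTGAA in mitotic genes. An E2F match was present in 6 of 13 members that act up to S phase (Cdc6, Cdt1, Mcm3, Mcm5, Mcm6 and Mcm7) and in 1 of 19 that act in G2 and mitosis (Cdk1), against 1.91% of all 27025 promoters. TTTGAA was present in 1 of the 13 and in 14 of the 19, against 18.1% of all promoters. CCAAT was present in 25 of 32 (78.1%), against 37.9% of all promoters. Mcm4, Foxm1, Tpx2, Ccne2, Aurkb, Ccna2 and Gmnn had no entry and are named only.

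The 250 bases before the first listed start are shown for 3 subunits of the replicative helicase and 3 mitotic genes, which differ in their motifs and in how far they differed between the tumours. All lie on the minus strand of GRCm38.p6, read 5′ to 3′, and the capitals mark the motif matches on either strand. Mcm2, the member that differed most between the tumours, held TTTGAA and no E2F match, and Mcm6 held 3 E2F matches, of which a pair overlaps in the run TTTGGCGCGAAA. Cdk1 held both kinds. Mcm7 held 1 E2F match, which lies within its RefSeq gene, as do most of its bases shown. Top2a held 6 CCAAT matches.
Mcm6, chr1:128359706-128359955: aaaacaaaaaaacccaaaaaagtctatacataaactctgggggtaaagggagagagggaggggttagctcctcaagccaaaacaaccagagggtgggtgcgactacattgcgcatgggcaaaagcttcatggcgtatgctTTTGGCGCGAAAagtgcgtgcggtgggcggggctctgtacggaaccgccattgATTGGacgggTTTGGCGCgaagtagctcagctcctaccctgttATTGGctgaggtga
Mcm7, chr5:138171884-138172133: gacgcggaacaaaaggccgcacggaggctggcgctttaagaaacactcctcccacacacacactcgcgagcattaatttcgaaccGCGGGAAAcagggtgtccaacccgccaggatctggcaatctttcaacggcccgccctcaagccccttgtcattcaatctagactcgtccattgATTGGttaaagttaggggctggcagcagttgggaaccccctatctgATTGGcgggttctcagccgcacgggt
Mcm2, chr6:88898781-88899030: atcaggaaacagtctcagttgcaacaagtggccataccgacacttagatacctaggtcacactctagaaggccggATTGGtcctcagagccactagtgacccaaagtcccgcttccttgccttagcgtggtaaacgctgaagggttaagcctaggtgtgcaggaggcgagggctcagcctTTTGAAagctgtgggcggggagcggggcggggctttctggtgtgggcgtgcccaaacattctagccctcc
Ccnb2, chr9:70421555-70421804: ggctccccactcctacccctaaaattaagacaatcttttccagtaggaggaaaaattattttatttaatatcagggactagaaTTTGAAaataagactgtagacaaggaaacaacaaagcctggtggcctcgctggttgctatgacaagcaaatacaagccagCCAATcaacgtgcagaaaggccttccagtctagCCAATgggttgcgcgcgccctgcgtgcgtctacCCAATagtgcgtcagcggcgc
Cdk1, chr10:69352913-69353162: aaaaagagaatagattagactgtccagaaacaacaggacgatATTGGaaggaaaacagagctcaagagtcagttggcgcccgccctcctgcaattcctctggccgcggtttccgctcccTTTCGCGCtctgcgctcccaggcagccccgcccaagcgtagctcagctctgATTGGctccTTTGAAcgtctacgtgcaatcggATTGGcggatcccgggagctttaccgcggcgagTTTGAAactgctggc
Top2a, chr11:99024190-99024439: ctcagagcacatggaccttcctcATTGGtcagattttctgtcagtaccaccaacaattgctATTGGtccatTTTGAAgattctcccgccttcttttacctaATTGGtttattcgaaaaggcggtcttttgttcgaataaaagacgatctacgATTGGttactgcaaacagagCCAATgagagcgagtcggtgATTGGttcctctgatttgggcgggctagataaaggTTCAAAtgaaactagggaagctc

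Total FPKM per library ran from 614875 to 815591. The highest total belonged to B16F10 RFP- number 12, in which 10597 genes were listed at 0, more than in any other. That library correlated less well with the other B16F10 libraries (r from 0.938 to 0.961 across genes) and is taken up again below, with results given without it. By the smallest non-zero values, a single read counted for 2.98 to 3.67 times more FPKM in B16F10 libraries than in the MC38 library with most reads, and for 1 to 1.17 times in MC38 libraries, so B16F10 was sequenced less deeply. Arg1, the reporter's own gene, stood at 615, 642 and 916 FPKM in RFP+ libraries and at 62.8, 56.2 and 125 FPKM in RFP- libraries of B16F10. In MC38 it stood at 471, 553 and 394 FPKM in RFP+ libraries and at 56.0, 58.5 and 40.6 FPKM in RFP- libraries. The groups did not overlap in either tumour (log2 difference 3.21 ± 0.27 SE, adjusted p = 0.000251 in B16F10, and 3.17, adjusted p = 0.000286 in MC38). All 12 macrophage core genes reached 1 FPKM in every group. Melanocyte genes were high in the B16F10 libraries. The 10 melanocytic genes summed to 8246 to 10831 FPKM in RFP+ and 8271 to 10824 FPKM in RFP- libraries of B16F10, against 14.5 to 19.4 FPKM in RFP+ and 11.2 to 14.9 FPKM in RFP- libraries of MC38. The 12 macrophage core genes summed to 6204 to 12117 FPKM in RFP+ and 4429 to 7739 FPKM in RFP- libraries of B16F10, against 31777 to 32735 FPKM in RFP+ and 22808 to 24949 FPKM in RFP- libraries of MC38.

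Cell cycle genes were higher in B16F10 than in MC38 libraries in nearly every member, in both gates. In RFP+ cells 33 of 39 members were higher and none lower (limma, adjusted p under 0.05), where 35.2% of all genes were higher and 20% lower. In RFP- cells 30 were higher and 1, Cenpe, lower, where 37.8% of all genes were higher and 21.9% lower. The median log2 difference of the members was 1.01 in RFP+ and 0.94 in RFP- cells, against 0.23 over all genes in either gate. In RFP+ cells the sign was positive for all 39 members, and in RFP- cells for 37. The members held 0.334% to 0.404% of the total FPKM in B16F10 libraries and 0.144% to 0.173% in MC38 libraries. Between the tumours, 31 of 39 members had all 6 B16F10 libraries above all 6 MC38 libraries, as did 31.9% of all genes. The exceptions were Mcm4, Gmnn, E2f1, Kif11, Prc1, Cenpe, Cenpf and Mki67. In bulk libraries, more dividing cells and more of these transcripts per cell cannot be told apart. Nor can cells of different origin, and the part of melanoma RNA in this difference was not tested.

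**Figure D1:**
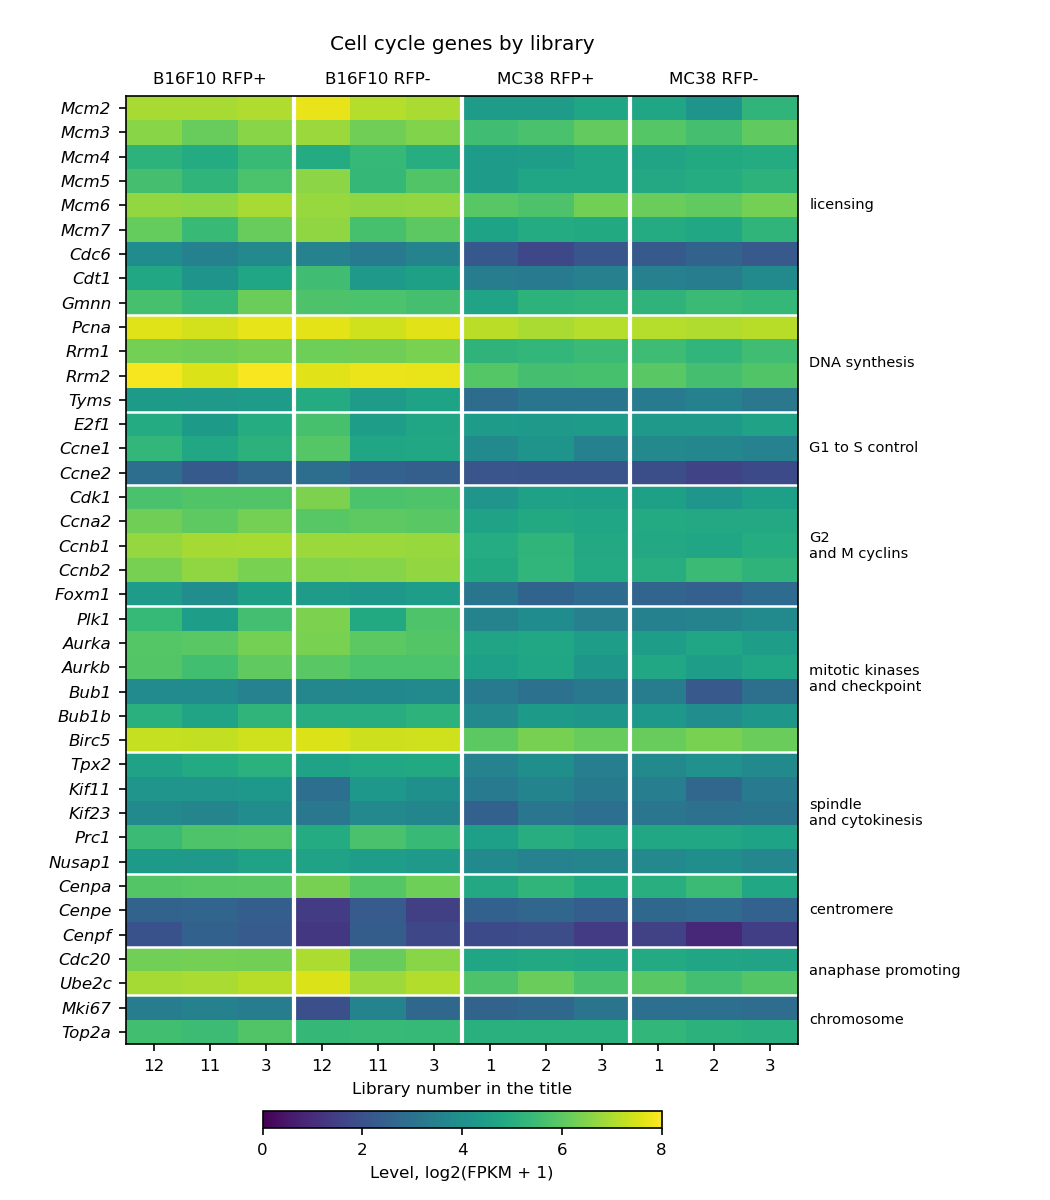
Level of each of the 39 members, as log2(FPKM + 1) in colour, in each of the 12 libraries, with RFP+ and RFP- libraries of B16F10 left of those of MC38 and the members ordered by role. Rrm2, Mcm2 and Ccnb1 are brighter in all 6 B16F10 libraries, and Mki67 and Cenpe are darkest in RFP- number 12 of B16F10.

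Values of each group are given below in the order of the libraries' title numbers, 12, 11 and 3 in B16F10 and 1, 2 and 3 in MC38. The licensing genes put the replicative helicase on origins. All 9 were higher in B16F10 in RFP+ cells and 7 were in RFP- cells, with median log2 differences of 0.91 and 0.94. Mcm2, a subunit of that helicase, stood at 122, 123 and 130.4 FPKM in RFP+ and 210.3, 136 and 125 FPKM in RFP- libraries of B16F10, against 19.8, 20.1 and 25.6 FPKM in RFP+ and 25.9, 16.7 and 36.6 FPKM in RFP- libraries of MC38. Every B16F10 library was above every MC38 library, and Mcm2 had the largest ratio of tumour means of all members, 5.85 (log2 difference 2.48 ± 0.25 SE, adjusted p = 2.99e-06 in RFP+ cells, and 2.56 ± 0.25, adjusted p = 1.98e-06 in RFP- cells). The other subunits differed less, although they form 1 ring with it. Mcm6, the most abundant of them in MC38, stood at 103, 99.3 and 122 FPKM in RFP+ and 107, 102 and 102 FPKM in RFP- libraries of B16F10, against 60.0, 52.9 and 77.3 FPKM in RFP+ and 70.7, 64.6 and 79.2 FPKM in RFP- libraries of MC38. Its log2 differences of 0.78 ± 0.15 in RFP+ and 0.53 ± 0.15 in RFP- cells passed the threshold (adjusted p = 0.000721 and 0.00789). Mcm5 stood at 48.6, 36.7 and 52.4 FPKM in RFP+ and 95.8, 39.6 and 56.4 FPKM in RFP- libraries of B16F10, against 20.6, 25.2 and 25.4 FPKM in RFP+ and 27.6, 29.9 and 35.2 FPKM in RFP- libraries of MC38, and its highest value was again that of RFP- number 12. Mcm5 differed by 0.91 ± 0.26 in RFP+ (adjusted p = 0.00821) and 0.94 ± 0.26 in RFP- cells (adjusted p = 0.00633), and by 0.61 in RFP- cells without that library. Mcm4 stood at 35.3, 29.0 and 41.0 FPKM in RFP+ and 29.6, 40.4 and 30.4 FPKM in RFP- libraries of B16F10, against 20.2, 20.8 and 25.6 FPKM in RFP+ and 24.6, 27.7 and 29.1 FPKM in RFP- libraries of MC38. It passed in RFP+ (0.63 ± 0.17, adjusted p = 0.00698) and not in RFP- cells (0.28 ± 0.17, adjusted p = 0.173), a contrast between gates that has its own test below. Cdc6, which loads the helicase, stood at 13.9, 10.4 and 12.7 FPKM in RFP+ and 10.8, 8.79 and 10.9 FPKM in RFP- libraries of B16F10, against 3.56, 2.35 and 3.43 FPKM in RFP+ and 3.77, 4.87 and 3.75 FPKM in RFP- libraries of MC38, with no overlap between the tumours. Cdc6 differed by 1.70 ± 0.19 in RFP+ (adjusted p = 9e-06) and 1.12 ± 0.19 in RFP- cells (adjusted p = 0.000256). Its partner Cdt1 had a ratio of tumour means of 2.56, Mcm7 of 2.27 and Mcm3 of 1.60. Gmnn, for geminin, the inhibitor of Cdt1, had a ratio of 1.48. Mcm7 shares bases with Ap4m1 (421) and Cops6 (64) on the opposite strand, and the strand setting was not given in the sources used. Cdt1 shares 5540 bases with Gm20388 on the same strand, a gene with no value in these data.

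The DNA synthesis genes rose in B16F10 in 4 of 4 members in either gate, with median log2 differences of 1.18 in RFP+ and 1.09 in RFP- cells. Rrm2, the regulated small subunit of ribonucleotide reductase, which makes deoxynucleotides, was the most abundant member in B16F10. It stood at 237, 190.0 and 242 FPKM in RFP+ and 199, 216 and 212 FPKM in RFP- libraries of B16F10, against 58.9, 49.3 and 50.3 FPKM in RFP+ and 61.3, 48.4 and 55.7 FPKM in RFP- libraries of MC38. The tumours lay far apart against the spread of either (2.05 ± 0.14 SE, adjusted p = 7.96e-08 in RFP+ cells, and 1.91 ± 0.14, adjusted p = 1.43e-07 in RFP- cells). Rrm1, the large subunit of the same enzyme, stood at 79.9, 76.02 and 81.9 FPKM in RFP+ and 73.9, 75.8 and 83.8 FPKM in RFP- libraries of B16F10, against 35.8, 38.2 and 43.0 FPKM in RFP+ and 44.5, 37.4 and 46.2 FPKM in RFP- libraries of MC38. Rrm1 differed by 1.01 ± 0.13 in RFP+ (adjusted p = 2.33e-05) and 0.85 ± 0.13 in RFP- cells (adjusted p = 8e-05). Its ratio of tumour means, 1.92, was under the 4.003 of Rrm2. Pcna, the sliding clamp of DNA polymerase, was the most abundant member in MC38. It stood at 193, 173 and 209.6 FPKM in RFP+ and 204, 171 and 199 FPKM in RFP- libraries of B16F10, against 145, 126 and 138 FPKM in RFP+ and 137, 132 and 141 FPKM in RFP- libraries of MC38. The tumours did not overlap, but the ratio of their means was only 1.41 (log2 difference 0.49 ± 0.12, adjusted p = 0.00421 in RFP+ cells, and 0.48 ± 0.12, adjusted p = 0.00411 in RFP- cells). Tyms, thymidylate synthase, stood at 19.5, 19.0 and 20.5 FPKM in RFP+ and 29.3, 20.1 and 24.0 FPKM in RFP- libraries of B16F10, against 6.16, 7.57 and 7.64 FPKM in RFP+ and 8.78, 10.3 and 8.05 FPKM in RFP- libraries of MC38. It too showed no overlap between tumours, at 1.35 ± 0.17 in RFP+ cells (adjusted p = 2.21e-05) and 1.33 ± 0.17 in RFP- cells (adjusted p = 2.19e-05).

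Of the 3 G1 to S genes, 1 rose in RFP+ and 2 in RFP- cells. E2f1, the transcription factor at this step, stood at 29.3, 19.5 and 30.1 FPKM in RFP+ and 50.1, 21.5 and 25.3 FPKM in RFP- libraries of B16F10, against 20.3, 19.2 and 20.3 FPKM in RFP+ and 18.9, 19.1 and 23.2 FPKM in RFP- libraries of MC38. The tumours overlapped in both gates, RFP- number 12 was far above the rest, and neither gate passed (adjusted p = 0.257 in RFP+ and 0.0858 in RFP- cells). In RFP- cells its log2 difference was 0.55, and it was 0.78, past the threshold (adjusted p = 0.0194), without RFP- number 11 of B16F10 and 0.19 without number 12. Ccne1, a cyclin partner of Cdk2, passed in both gates, at 1.25 ± 0.28 in RFP+ (adjusted p = 0.00177) and 1.47 ± 0.28 in RFP- cells (adjusted p = 0.000508). Its relative Ccne2 passed in RFP- cells (0.83 ± 0.21, adjusted p = 0.00376) and lay at the threshold in RFP+ cells (0.51 ± 0.21, adjusted p = 0.0502, and 0.0483 with the title number as a random block). Ccne2 shares 5622 bases with Ints8, which averaged 12.8 FPKM in B16F10 and 10.4 FPKM in MC38.

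The cyclins of G2 and mitosis, with Cdk1 and Foxm1, differed most of the role groups with 3 or more members. All 5 rose in both gates, with medians of 1.46 in RFP+ and 1.56 in RFP- cells. Ccnb1, the cyclin that with Cdk1 starts mitosis, stood at 106, 121 and 123 FPKM in RFP+ and 111, 111 and 107 FPKM in RFP- libraries of B16F10, against 30.1, 36.2 and 27.4 FPKM in RFP+ and 27.6, 25.8 and 29.8 FPKM in RFP- libraries of MC38. Its libraries lay close together within each tumour (1.88 ± 0.13 SE, adjusted p = 1.19e-07 in RFP+ cells, and 1.95 ± 0.13, adjusted p = 8.21e-08 in RFP- cells). Ccnb2, the second B-type cyclin, stood at 81.5, 101 and 83.0 FPKM in RFP+ and 90.6, 91.9 and 104 FPKM in RFP- libraries of B16F10, against 27.8, 37.8 and 28.9 FPKM in RFP+ and 30.8, 42.6 and 35.9 FPKM in RFP- libraries of MC38. Ccna2, the cyclin of S and G2 phase, stood at 76.2, 63.0 and 78.8 FPKM in RFP+ and 59.7, 63.8 and 61.1 FPKM in RFP- libraries of B16F10, against 23.1, 27.9 and 25.8 FPKM in RFP+ and 28.6, 27.2 and 27.2 FPKM in RFP- libraries of MC38, and shares 863 bases with Exosc9. Both cyclins had every B16F10 library above every MC38 library. Ccnb2 differed by 1.47 ± 0.16 in RFP+ (adjusted p = 6.56e-06) and 1.38 ± 0.16 in RFP- cells (adjusted p = 9.74e-06), and Ccna2 by 1.46 ± 0.13 (adjusted p = 9.31e-07) and 1.13 ± 0.13 (adjusted p = 8.3e-06). Cdk1, the kinase itself, stood at 51.0, 56.1 and 56.1 FPKM in RFP+ and 84.0, 51.8 and 55.0 FPKM in RFP- libraries of B16F10, against 17.2, 23.0 and 22.4 FPKM in RFP+ and 22.5, 17.6 and 21.7 FPKM in RFP- libraries of MC38 (1.35 ± 0.19, adjusted p = 4.92e-05 in RFP+ cells, and 1.56 ± 0.19, adjusted p = 1.27e-05 in RFP- cells). Foxm1, the transcription factor of mitotic genes, stood at 19.8, 14.1 and 22.2 FPKM in RFP+ and 20.5, 18.03 and 20.9 FPKM in RFP- libraries of B16F10, against 7.67, 4.99 and 5.99 FPKM in RFP+ and 5.16, 4.49 and 5.90 FPKM in RFP- libraries of MC38. Foxm1 differed by 1.44 ± 0.20 in RFP+ (adjusted p = 5.02e-05) and 1.75 ± 0.20 in RFP- cells (adjusted p = 8.15e-06). Its ratio of tumour means was 3.38, next to 2.85 for Cdk1, 2.71 for Ccnb2 and 2.52 for Ccna2.

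Of the 6 mitotic kinases, checkpoint genes and the passenger Birc5, 5 rose in RFP+ and 6 in RFP- cells, with medians of 1.26 and 1.19. Aurka, the kinase of the spindle poles, stood at 58.9, 60.3 and 78.7 FPKM in RFP+ and 83.4, 62.7 and 57.3 FPKM in RFP- libraries of B16F10, against 24.7, 26.0 and 21.5 FPKM in RFP+ and 21.3, 25.5 and 20.8 FPKM in RFP- libraries of MC38. Birc5, survivin, a subunit of the chromosomal passenger complex, stood at 157, 153 and 170.5 FPKM in RFP+ and 192, 167 and 170.2 FPKM in RFP- libraries of B16F10, against 62.8, 81.5 and 68.9 FPKM in RFP+ and 70.1, 83.1 and 71.2 FPKM in RFP- libraries of MC38. Neither gene overlapped between the tumours. Aurka differed by 1.41 ± 0.17 in RFP+ (adjusted p = 1.6e-05) and 1.54 ± 0.17 in RFP- cells (adjusted p = 6.51e-06), and Birc5 by 1.17 ± 0.13 (adjusted p = 8.48e-06) and 1.23 ± 0.13 (adjusted p = 4.61e-06). Plk1, the polo-like kinase of mitotic entry, had a ratio of tumour means of 3.98, with log2 differences of 1.49 ± 0.35 SE in RFP+ (adjusted p = 0.00276) and 2.05 ± 0.35 in RFP- cells (adjusted p = 0.000236). Aurkb, the kinase of the passenger complex, had a ratio of 2.43 and Bub1b, of the spindle checkpoint, of 1.90. Bub1, its partner in the checkpoint, passed in RFP- (0.90 ± 0.24, adjusted p = 0.00638) and not in RFP+ cells (0.58 ± 0.24, adjusted p = 0.0597).

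Among the 5 spindle and cytokinesis genes, 5 rose in RFP+ and 3 in RFP- cells (medians 0.92 and 0.63). Prc1, which bundles microtubules at the midzone, was the most abundant. It shares 21810 bases with Rccd1, which averaged 1.99 FPKM in B16F10 and 1.26 FPKM in MC38. Prc1 stood at 42.6, 54.5 and 55.8 FPKM in RFP+ and 29.1, 51.1 and 41.8 FPKM in RFP- libraries of B16F10, against 21.8, 30.4 and 27.1 FPKM in RFP+ and 26.3, 26.4 and 24.0 FPKM in RFP- libraries of MC38. RFP- number 12 of B16F10 lay below the highest MC38 library, and the RFP- difference of 0.61 ± 0.20 (adjusted p = 0.0165) passed the threshold, but not with quantile or upper-quartile scaling, without B16F10 RFP- number 11 or without MC38 RFP- number 3 (adjusted p = 0.0788, 0.0984, 0.0702 and 0.0528). The motor genes Kif11 and Kif23 did not pass in RFP- cells (0.63 ± 0.30, adjusted p = 0.089, and 0.46 ± 0.21, adjusted p = 0.0718). Tpx2, which targets Aurka to the spindle, and Nusap1, a microtubule binder, passed in both gates, with ratios of tumour means of 2.11 and 1.69. Both genes of the anaphase-promoting route, which marks cyclins for destruction, rose in both gates. Cdc20, its activator, stood at 77.1, 79.1 and 78.0 FPKM in RFP+ and 129, 69.5 and 93.5 FPKM in RFP- libraries of B16F10, against 25.03, 28.1 and 25.7 FPKM in RFP+ and 28.8, 25.9 and 24.6 FPKM in RFP- libraries of MC38. Ube2c, its ubiquitin-conjugating enzyme, stood at 121, 125 and 139 FPKM in RFP+ and 191, 113 and 134 FPKM in RFP- libraries of B16F10, against 53.4, 71.5 and 51.0 FPKM in RFP+ and 61.4, 48.3 and 56.6 FPKM in RFP- libraries of MC38. Cdc20 differed by 1.54 ± 0.18 in RFP+ (adjusted p = 1.28e-05) and 1.80 ± 0.18 in RFP- cells (adjusted p = 2.72e-06), and Ube2c by 1.13 ± 0.19 (adjusted p = 0.00023) and 1.36 ± 0.19 (adjusted p = 4.59e-05). Both were highest in RFP- number 12, and Ube2c shares 1662 bases with Tnnc2, which averaged 0.11 FPKM in B16F10 and 0.355 FPKM in MC38.

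The centromere and chromosome genes held the members that went against the rest. Of 3 centromere genes, 1 rose in RFP+ cells, and in RFP- cells 1 rose and 1 fell. Cenpa, the centromeric histone, rose in both, at 57.2, 59.3 and 60.4 FPKM in RFP+ and 80.7, 57.7 and 74.7 FPKM in RFP- libraries of B16F10, against 27.4, 36.4 and 28.3 FPKM in RFP+ and 32.2, 42.6 and 26.6 FPKM in RFP- libraries of MC38. Cenpa differed by 0.93 ± 0.18 in RFP+ (adjusted p = 0.000813) and 1.06 ± 0.18 in RFP- cells (adjusted p = 0.000261). Cenpe, a kinetochore motor, stood at 4.83, 5.17 and 4.41 FPKM in RFP+ and 1.62, 3.95 and 1.86 FPKM in RFP- libraries of B16F10, against 4.57, 5.20 and 4.34 FPKM in RFP+ and 5.45, 6.004 and 4.67 FPKM in RFP- libraries of MC38. It was the 1 member lower in B16F10, in RFP- cells (-0.93 ± 0.23 SE, adjusted p = 0.00367), where all 3 B16F10 libraries lay below all 3 of MC38, while the RFP+ groups overlapped (0.03 ± 0.23, adjusted p = 0.933). Without RFP- number 12 it was still lower (-0.75, adjusted p = 0.013). Scaled to the macrophage core genes, the RFP- difference of Cenpe was 0.89, the opposite sign. That was still below the medians under this scaling, 2.16 for all genes and 3.12 for the members. Cenpf, another kinetochore protein and the least abundant member, stood at 3.07, 4.63 and 3.94 FPKM in RFP+ and 1.48, 4.10 and 2.35 FPKM in RFP- libraries of B16F10, against 2.51, 2.74 and 1.70 FPKM in RFP+ and 1.99, 0.882 and 1.78 FPKM in RFP- libraries of MC38. It passed in neither gate (adjusted p = 0.104 in RFP+ and 0.154 in RFP- cells). In RFP+ cells it passed with the compared groups fitted alone (adjusted p = 0.0408). In RFP- cells it was 0.72 without B16F10 RFP- number 12, which passed (adjusted p = 0.0362), and 0.20 without number 11. Mki67, the classical marker of dividing cells, stood at 9.16, 10.3 and 9.16 FPKM in RFP+ and 2.91, 11.03 and 5.30 FPKM in RFP- libraries of B16F10, against 4.80, 5.47 and 7.45 FPKM in RFP+ and 6.52, 6.50 and 6.27 FPKM in RFP- libraries of MC38. RFP- number 12 had the lowest value of all 12 libraries, and neither gate passed (0.63 ± 0.31, adjusted p = 0.104 in RFP+ cells, and -0.16 ± 0.31, adjusted p = 0.691 in RFP- cells). Without that library the RFP+ difference passed (adjusted p = 0.029) and the RFP- difference was 0.23. The RFP+ difference itself stayed at 0.63, since RFP- libraries enter it only through the spread that all groups share. Without RFP- number 11 the RFP+ difference passed too (adjusted p = 0.0213), and the RFP- difference was -0.58 (adjusted p = 0.0475). Top2a, the topoisomerase that untangles chromosomes, stood at 46.9, 44.0 and 55.4 FPKM in RFP+ and 39.02, 41.0 and 40.1 FPKM in RFP- libraries of B16F10, against 32.9, 32.9 and 32.8 FPKM in RFP+ and 38.5, 34.4 and 31.6 FPKM in RFP- libraries of MC38. It passed in RFP+ (0.55 ± 0.13, adjusted p = 0.00286) and not in RFP- cells (0.20 ± 0.13, adjusted p = 0.197).

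**Figure D2:**
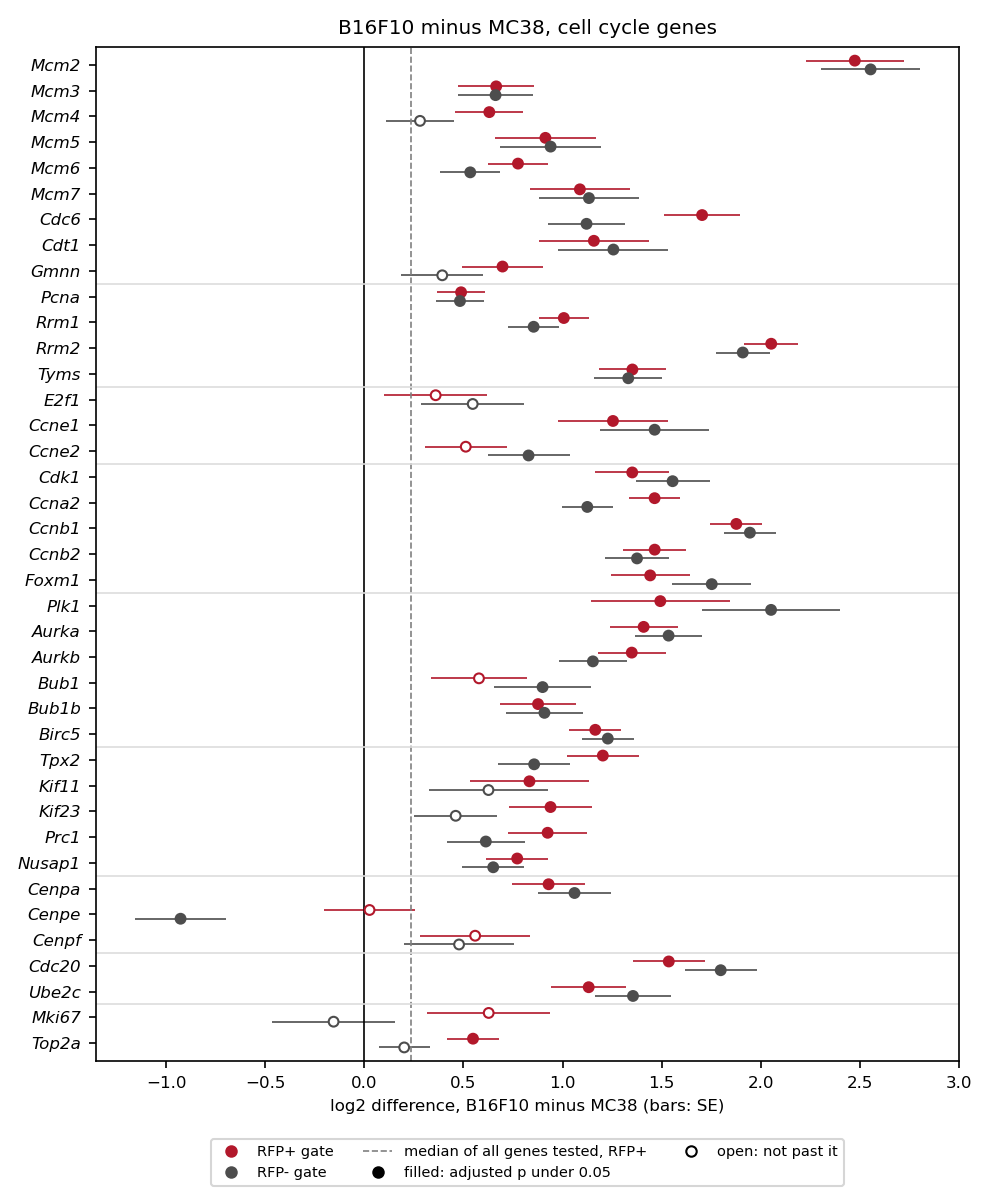
Log2 difference, B16F10 minus MC38, on the log2(FPKM + 1) scale, for each of the 39 members in RFP+ and in RFP- cells, with bars for the SE, a dashed line at the median of all genes tested in RFP+ cells, and filled points for an adjusted p under 0.05. Mcm2 lies furthest to the right in both gates, and Cenpe in RFP- cells is the 1 filled point left of 0.

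The difference between tumours was set beside the level of Pmel, a melanosome protein and marker of melanoma cells. Pmel stood at 1622, 2280 and 1898 FPKM in RFP+ and 3057, 2362 and 2053 FPKM in RFP- libraries of B16F10, against 0.886, 2.38 and 1.504 FPKM in RFP+ and 0.993, 1.75 and 2.46 FPKM in RFP- libraries of MC38 (log2 differences 9.57 in RFP+ and 9.85 in RFP- cells). Within B16F10 the order of the libraries by Pmel was not their order by the members. The mean over members of log2(FPKM + 1) was highest, at 5.46, in RFP+ number 3, with the second lowest Pmel, and lowest, at 5.19, in RFP+ number 11, with the third highest. It was 5.43 in RFP- number 12, with the highest Pmel. Dct, another melanocytic gene, gave a different order. It was lowest in RFP- number 12, at 1857 FPKM, against 2054 to 2881 FPKM in the other B16F10 libraries. In MC38 the members' mean was 4.19 to 4.37 in libraries with at most 2.46 FPKM of Pmel. Of the 8 epithelial genes, 7 stayed under 1 FPKM in every library, all but Cdh1, and no other marker of MC38 cells was in the lists. The epithelial genes summed to 0.797 to 1.40 FPKM in RFP+ and 0.877 to 2.52 FPKM in RFP- libraries of B16F10. In MC38 they summed to 6.36 to 12.3 FPKM in RFP+ and 6.68 to 12.4 FPKM in RFP- libraries. Neutrophil genes summed to 25.05 to 314 FPKM in RFP+ and 29.5 to 820 FPKM in RFP- libraries of B16F10, against 40.3 to 44.9 FPKM in RFP+ and 40.2 to 44.5 FPKM in RFP- libraries of MC38, so the lowest B16F10 libraries lay below MC38. Fibroblast genes summed to 1.78 to 2.93 FPKM in B16F10 and 48.3 to 64.7 FPKM in MC38 libraries. Of the 6 fibroblast genes, 3 stayed under 1 FPKM in every MC38 library, namely Col1a1, Col1a2 and Lum. T cell, NK cell, B cell, dendritic cell, endothelial and platelet genes summed to at most 67.5 FPKM a list in any library. The part of these cells in the difference was not tested.

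**Figure D3:**
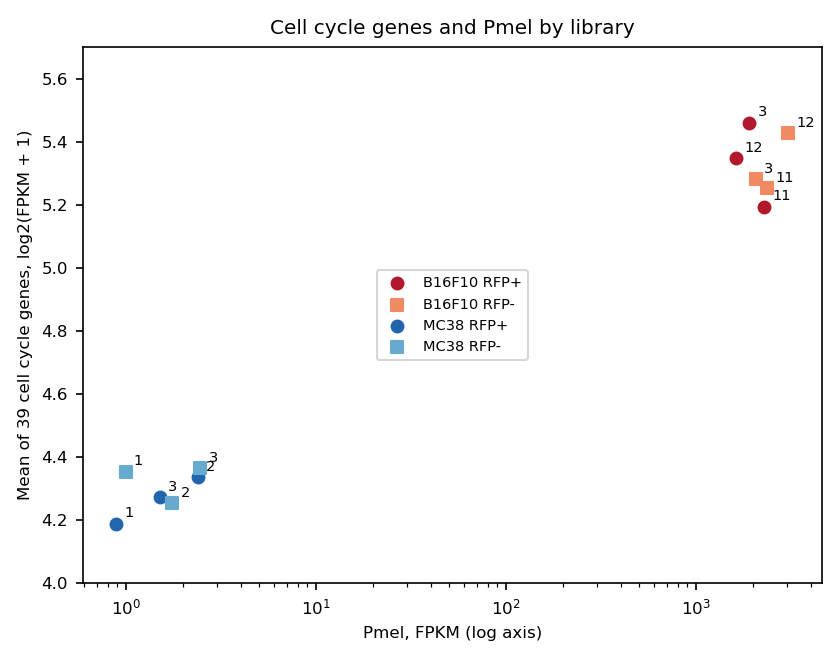
Mean of log2(FPKM + 1) over the 39 members against Pmel in FPKM on a log axis, with 1 point per library and its title number. The 6 B16F10 libraries lie at 5.19 to 5.46 and the 6 MC38 libraries at 4.19 to 4.37, with no library between them on either axis.

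Between RFP+ and RFP- cells no member passed the threshold, in B16F10, in MC38, in the mean of both or in the difference between both, with or without the title number as a block. Without the block 0.178% of all genes passed in B16F10, 0.0254% in MC38, 0.449% in the mean and 0% in the difference. With the block these were 1.36%, 0.44%, 1.92% and 0.0339%. At an unadjusted p under 0.05, 1 member passed in B16F10, 0 in MC38, 2 in the mean and 1 in the difference without the block, and 5, 0, 4 and 1 with it. Of all genes, 9.82%, 3.35%, 7.45% and 3.85% passed that limit in these comparisons without the block and 18.4%, 6.09%, 13.3% and 8.55% with it, so the members passed it no more often than genes at large. The medians of the members were -0.02 in B16F10, -0.08 in MC38 and -0.05 in the mean of both, on the log2 scale, while those of all genes were -0.01, 0.00 and 0.00. The median in B16F10 ran from -0.09 to 0.07 with each library left out in turn, so no direction is drawn from it.

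**Figure D4:**
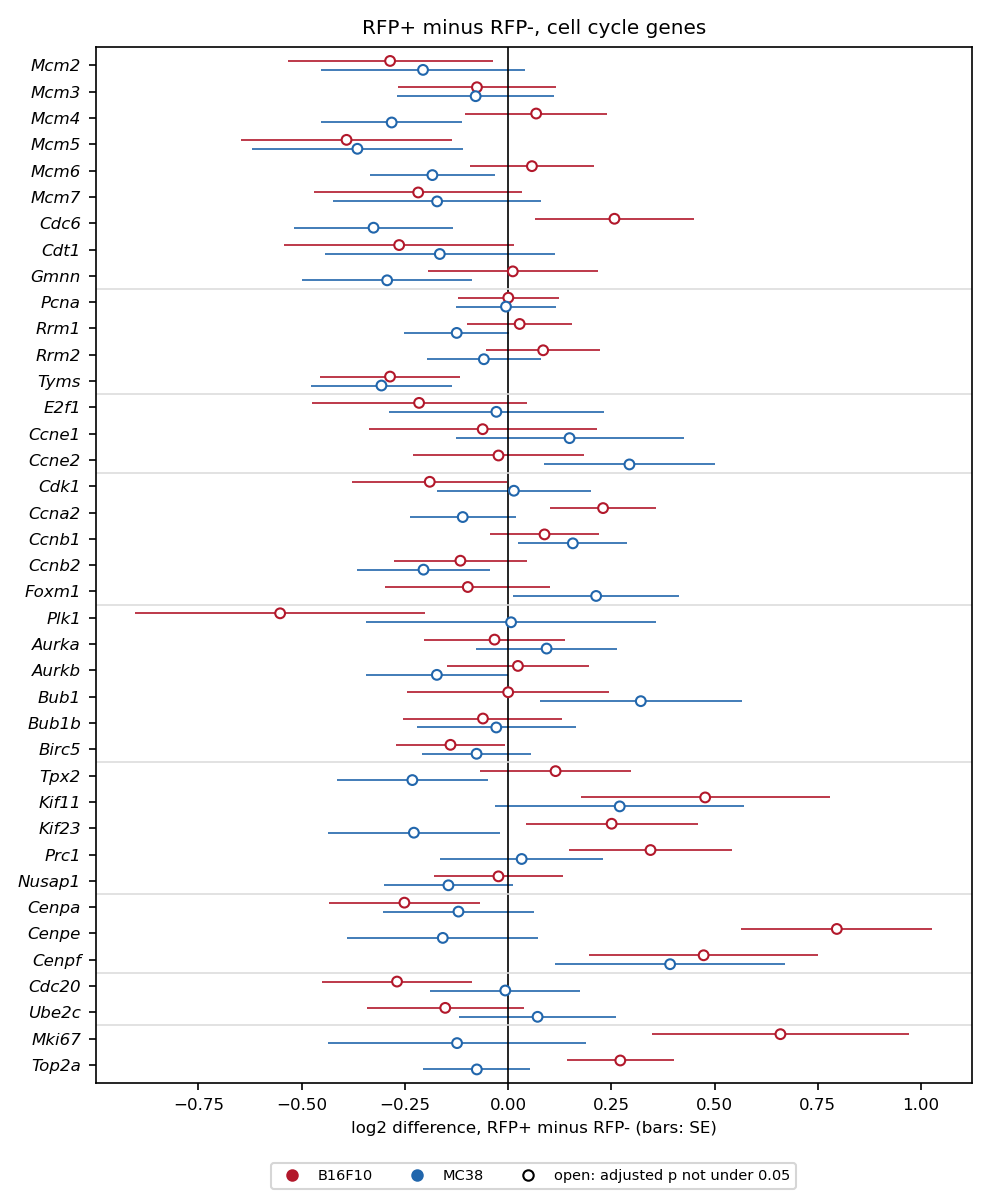
Log2 difference, RFP+ minus RFP-, on the log2(FPKM + 1) scale, for each of the 39 members in B16F10 and in MC38, with bars for the SE. All points are open, for an adjusted p of 0.05 or more, with Cenpe in B16F10 furthest to the right and Plk1 in B16F10 furthest to the left.

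In B16F10 the members with the smallest p were Cenpe, Mki67, Top2a and Ccna2, all with higher values in RFP+ cells. Cenpe had RFP+ libraries all above RFP- libraries (0.80 ± 0.23 SE, unadjusted p = 0.00427, adjusted p = 0.343, and 0.103 with the block). Without RFP- number 11 the difference was 1.08 (adjusted p = 0.0292), and without RFP- number 12 it was 0.62. Mki67 had overlapping groups, since RFP- number 11 had the highest value of the tumour and RFP- number 12 the lowest (0.66 ± 0.31, adjusted p = 0.497). It was 0.28 without number 12 and 1.08 (adjusted p = 0.0518) without number 11. Top2a, without overlap, had 0.27 ± 0.13 and Ccna2 had 0.23 ± 0.13 (adjusted p = 0.497 and 0.511). Non-overlap in this direction was found for 2 members, Cenpe and Top2a, and for 5.72% of all genes. Over the pairs with the same number, Cdc6, Prc1, Cenpe, Cenpf and Top2a were higher in RFP+ cells in 3 of 3 (17% of all genes), and Mcm5, Tyms and Plk1 lower in 3 of 3 (19.1% of all genes). Plk1 had the widest SE of the members (-0.55 ± 0.35).

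In MC38 the members with the smallest p were Tyms, Cdc6, Mcm4 and Mcm5, of the DNA synthesis and licensing groups, all with lower values in RFP+ cells. Their unadjusted p in limma ran from 0.0949 for Tyms to 0.176 for Mcm5. The log2 differences were -0.31 ± 0.17 SE for Tyms, -0.33 ± 0.19 for Cdc6, -0.28 ± 0.17 for Mcm4 and -0.37 ± 0.26 for Mcm5, with adjusted p = 1 for Tyms. The RFP+ libraries lay below all RFP- libraries for Tyms, Cdc6 and Mcm5 (4.98% of all genes), and above them for Ccne2 (6.33% of all genes). All 9 licensing genes had a negative difference in MC38. In 3 of 3 pairs 11 members were lower in RFP+ cells, namely Mcm4, Mcm5, Mcm6, Cdc6, Cdt1, Gmnn, Tyms, Ccnb2, Birc5, Tpx2 and Cenpe (15.5% of all genes), and Ccne2, Foxm1 and Aurka were higher (17.3% of all genes). These counts were not tested, and none of the genes passed.

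Over both tumours Tyms had -0.30 ± 0.12 SE (adjusted p = 0.585), Mcm5 -0.38 ± 0.18, Cenpf 0.43 ± 0.20 and Cenpe 0.32 ± 0.16. Tyms and Mcm5 were lower in RFP+ cells in all 6 pairs, without passing the threshold. Of all genes, 19.1% were lower in 3 of 3 pairs in B16F10 and 15.5% in MC38. The share of all genes lower in all 6 was not counted, so nothing is drawn from these members. Mcm5 ran from -0.52 without B16F10 RFP- number 11 to -0.21 without number 12. For the difference between tumours in the gate effect, Cenpe was the member with the smallest p (0.95 ± 0.33 SE, unadjusted p = 0.0118, adjusted p = 0.895), with 0.80 in B16F10 and -0.16 in MC38. Cdc6 (0.58), Top2a (0.35) and Ccna2 (0.34) followed, none past the threshold. No member's tumour difference was thus shown to depend on the gate.

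Library B16F10 RFP- number 12 differed from the other 5 B16F10 libraries along the members' base composition. Its deviation, on the log2 scale, ran from -1.32 for Mki67, -1.26 for Kif11, -0.90 for Cenpe, -0.88 for Cenpf and -0.73 for Prc1 to 0.96 for Ccne1, 0.99 for E2f1, 1.04 for Mcm5, 1.05 for Cdt1 and 1.21 for Plk1. Across the 39 members its rank correlation with GC content was 0.744 and with transcript length -0.455, and across 10934 genes 0.585 and -0.309. Other B16F10 libraries deviated along GC too, with member correlations of -0.642 in RFP- number 11 and -0.611 in RFP+ number 11. The correlation was -0.396 in RFP+ number 3, -0.335 in RFP+ number 12 and 0.307 in RFP- number 3. Each deviation was taken against the other 5, which for these libraries include RFP- number 12. Genes are not independent replicates, and these are descriptions. The RFP+ minus RFP- difference in B16F10 had a rank correlation with GC of -0.762 over the members, and -0.342 without RFP- number 12. In MC38 it was -0.246. The B16F10 minus MC38 difference had 0.409 in RFP+ cells, which do not hold that library, and 0.505 in RFP- cells. With transcript length it had -0.363 in RFP+ and -0.448 in RFP- cells. Without that library 35 members were higher and none lower in RFP+ cells, and 33 were higher and 1 lower in RFP- cells, with medians of 1.01 and 0.93.

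**Figure D5:**
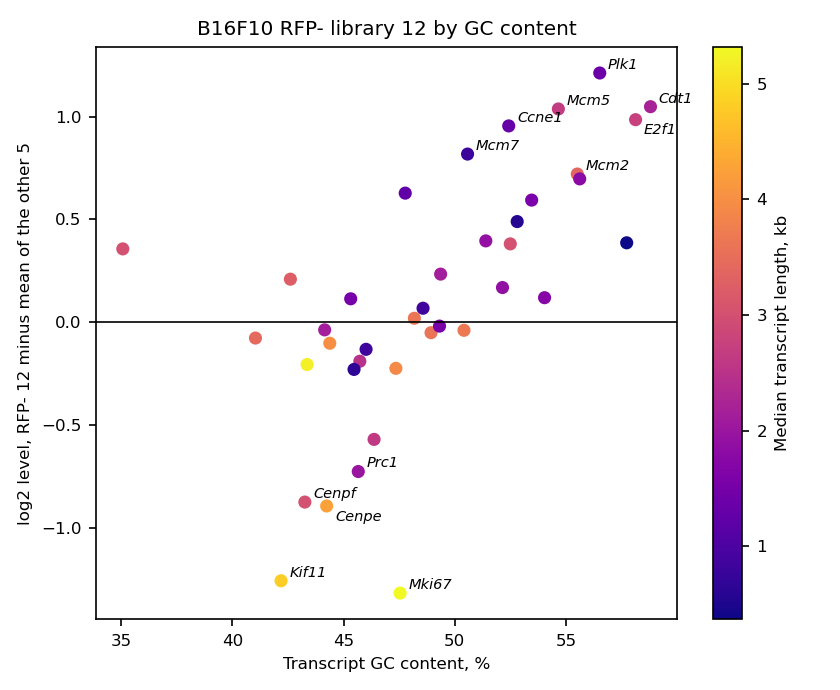
Level of each of the 39 members in B16F10 RFP- library number 12 minus the mean of the other 5 B16F10 libraries, on the log2(FPKM + 1) scale, against the GC content of its transcripts in percent, with the median transcript length in colour. Plk1, Cdt1 and E2f1 lie at the upper right, and Kif11, Cenpe and Mki67 at the lower left to middle.

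In the wider cell cycle, the genes of S phase, G2 and mitosis were mostly higher in B16F10, and those of G1 and exit control were called about as often as all genes. Of 67 further genes of S phase, G2 and mitosis, 49 were higher and 1 lower in B16F10 in RFP+ cells, and 45 higher and 1 lower in RFP- cells, with medians of 0.89 and 0.78. The higher ones were 73.1% and 67.2% of the list, where 35.2% and 37.8% of all genes were higher. The lower one was Lmnb1, a nuclear lamin, in both gates. Its means were 14.1 and 19.9 FPKM in RFP+ and RFP- cells of B16F10, against 33.1 and 38.6 FPKM in MC38. Cdca3, a trigger of mitotic entry, had 79.4 and 101 FPKM in RFP+ and RFP- cells of B16F10, against 18.7 and 19.8 FPKM in MC38. Pbk, a mitotic kinase, had 62.7 and 55.7 FPKM in RFP+ and RFP- cells of B16F10, against 21.8 and 23.0 FPKM in MC38, and Hmmr, a spindle protein, had 17.8 and 15.1 FPKM, against 4.99 and 4.87 FPKM. Rfc4, a loader of the Pcna clamp, had 61.2 and 68.0 FPKM in RFP+ and RFP- cells of B16F10, against 20 and 24.7 FPKM in MC38. Ncapd2, a subunit of condensin, had 23.95 and 27.8 FPKM in RFP+ and RFP- cells of B16F10, against 6.69 and 5.95 FPKM in MC38.

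Of 31 genes of G1 and exit control, 11 were higher and 4 lower in B16F10 in RFP+ cells, and 11 higher and 6 lower in RFP- cells, with medians of 0.36 and 0.29. The higher ones made up 35.5% in either gate, against 35.2% and 37.8% of all genes, and the lower ones 12.9% and 19.4%, against 20% and 21.9% of all genes, so neither count stood above the background. The higher ones in both gates were Ccnd2 and Ccnd3, D-type cyclins, the kinases Cdk2, Cdk4 and Wee1, the Cdk4 inhibitor Cdkn2d, Myc, Cdc25a and Ccng1. Cdk4, the kinase that the D-type cyclins activate, had 319 and 403 FPKM in RFP+ and RFP- cells of B16F10, against 114 and 119 FPKM in MC38. It shares 641 bases on the opposite strand with Tspan31, which averaged 136.8 FPKM in B16F10 and 113.6 FPKM in MC38. Cdk2, the partner of the E-type cyclins, had 228 and 232 FPKM in RFP+ and RFP- cells of B16F10, against 17.03 and 17.9 FPKM in MC38. It overlaps Pmel by 837 bases on the opposite strand, so its reads cannot be told apart from those of Pmel where strand is not used, and its value is uncertain. The lower ones in both gates were the inhibitor Cdkn2b and the antiproliferative genes Btg1, Btg2 and Mxd1. Btg2 had 31.9 and 32.2 FPKM in RFP+ and RFP- cells of B16F10, against 215 and 219 FPKM in MC38. Btg1 had 66.7 and 46.8 FPKM in RFP+ and RFP- cells of B16F10, against 211 and 179 FPKM in MC38, and Mxd1, an antagonist of Myc, had 16.9 and 13.9 FPKM, against 59.7 and 59.8 FPKM. Cdkn2b, which blocks Cdk4, had 0.030 and 0.184 FPKM in RFP+ and RFP- cells of B16F10, against 3.89 and 3.60 FPKM in MC38. Between RFP+ and RFP- cells, Btg1 alone of both lists passed, in the mean of both tumours with the block (0.39 ± 0.08 SE, adjusted p = 0.038, and 0.699 without the block).

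Promoter motifs were set beside the difference between tumours, as a description. Members with a CHR match (TTTGAA or TTTAAA, 21 of 32) had a median log2 difference of 1.13 in RFP+ and 1.23 in RFP- cells, and the 11 without one 0.78 and 0.85. With an E2F match the medians were 1.09 and 1.12 over 7 members, and without one 0.94 and 0.91 over 25. For CCAAT the order was the other way. The medians were 0.93 and 0.91 over 25 members with a match, and 1.17 and 1.23 over 7 without one. Members with and without a motif overlapped: those with a CHR match ran from 0.03 to 2.48 in RFP+ cells, with Cenpe lowest and Mcm2 highest, and those without from 0.36 to 1.71.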

How the data were processed

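Bulk RNA-seq was available as 12 deposited tables, 1 per library, of gene symbols with FPKM values, per the file headers. RNA was taken up in TRI Reagent, and the cDNA and libraries were made with SMART-Seq HT and Nextera XT kits, per the labels' protocols. TopHat2 2.1.1, Bowtie2 2.2.8, SAMtools 0.1.18, Cuffdiff 2.2.1 and the mm10 build are named in the submitters' processing notes. Annotation, strand setting and read filters were not given in the sources used here, and read counts were not used here, so depth is known only relative to other libraries.

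Values were put on the scale log2(FPKM + 1), which understates the change of low genes. The 11808 genes that reached 1 FPKM in 3 or more libraries were fitted with limma 3.58.1 in R 4.3.3 (lmFit, eBayes with a trend), as 1 model of 4 group means with 8 residual degrees of freedom. Tests were two-sided, with Benjamini-Hochberg adjustment across the genes kept and a threshold of 0.05. The 6 comparisons were RFP+ minus RFP- in B16F10, in MC38, as the mean of both and as the difference of both, and B16F10 minus MC38 in each gate. Their results share libraries. P-values measure the spread between libraries, which may be technical in part, since the labels do not say which animal a library came from. The fit was checked on simulated data with independent noise for each library. Those data held no pairing and no deviation along GC content, so the check does not cover these.

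The title numbers stand in both gates. Between libraries with the same number, deviations from their group means correlated at r = 0.228 to 0.443, over the limit of 0.1 in all 6 pairs. For different numbers they correlated at -0.306 to 0.0178. These low values follow in part from the others, since deviations cancel within a group. The numbers were therefore taken to pair the samples, but the labels do not say what a number stands for. The block fit had 4 residual degrees of freedom, and between tumours a random block was used (correlation 0.291).

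The members and the further lists were chosen with earlier results of these data known. Values by library are given for the 12 members with the smallest adjusted p, the 4 with the smallest p where none passed, the most abundant member of each role group, Mki67 and Top2a. Other members are named as exceptions or by role. Up to 8 genes of the further lists were named by the smallest adjusted p, and Lmnb1, Btg1, Btg2 and Mxd1 were named after their values were seen. Promoters are from RefSeq (GRCm38.p6), and lengths, GC content and overlaps from GENCODE on the same build, the one also called mm10. Other fits had a pseudocount of 0.1 or 5, a filter of 5 FPKM or none, quantile, upper-quartile and macrophage core scaling, the groups alone, the block, and each library left out in turn. Tables were handled with jsonlite 2.0.0, Python 3.11.15, numpy 2.4.6, pandas 2.3.3 and matplotlib 3.10.9.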

Additional observations from a re-analysis of the deposited data

How the results depend on the processing

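Under the pseudocounts, filters, groups alone and the replicate block, 32 to 37 members were higher in B16F10 in RFP+ and 29 to 30 in RFP- cells, and none passed between the gates. With the groups alone, Mki67 (adjusted p = 0.0147) and Cenpf (adjusted p = 0.0408) gained a call in RFP+ cells between tumours. The block changed 1 member's call, Ccne2 in RFP+ cells between tumours. Scaling decided the size of the tumour difference. Scaled to the macrophage core genes, the median log2 difference over members was 3.15 in RFP+ and 3.12 in RFP- cells (all genes 2.05 and 2.16), and 0 members were lower in RFP- cells. With upper-quartile scaling it was 0.906 and 0.78, and in RFP- cells 0.799 with a pseudocount of 5 and 0.756 with quantile normalization. Of all calls, 63.8% in RFP+ and 63.4% in RFP- cells were higher in B16F10, 97.4% and 97.6% with core scaling, 52.8% and 52.0% with quantile and 58.4% and 56.1% with upper-quartile scaling. Between gates, core scaling gave medians of -0.248 in B16F10, -0.187 in MC38, -0.214 in their mean and -0.125 for their difference, and the block without the pair of number 12 gave 0.107 for the difference. Between gates in B16F10 few genes were called, 15 higher and 6 lower in RFP+ cells (71.4% higher). These counts were 11 and 24 with core scaling (31.4%) and 18 and 3 with quantile normalization (85.7%). With a pseudocount of 0.1 they were 6 and 4 (60%).

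Signs turned for Ccna2 between gates in B16F10 (-0.00393 with core scaling), for Cenpe between tumours in RFP+ (-0.195 with quantile, -0.0597 with upper-quartile scaling) and in RFP- cells (0.886 with core scaling), and for Mki67 in RFP- cells (1.82 with core scaling). Core scaling moved the median of all genes too. Between tumours in RFP- cells that median went from 0.23 to 2.16, above the values of Cenpe and Mki67. Between gates in B16F10 it went from -0.01 to -0.23. Why the scalings differ was not tested. With each library left out in turn, members higher ran from 31 to 35 in RFP+ and from 29 to 33 in RFP- cells between tumours, members lower in RFP- cells from 1 to 2 (Mki67 at -0.581, adjusted p = 0.0475, without B16F10 RFP- number 11), and the RFP- median from 0.929 to 1.1. Between tumours Cenpe in RFP+ cells ran from -0.0203 to 0.0877 and Mki67 in RFP- cells from -0.581 to 0.229. Between gates in B16F10, members higher ran from 0 to 1 and the median from -0.0883 to 0.0744, and the median of the difference from -0.0674 to 0.143. Without 1 B16F10 RFP- library, Cenpf (0.724 without number 12) and E2f1 (0.782 without number 11) gained a call in RFP- cells. Mki67 gained a call in RFP+ cells without number 12 or without number 11, at an unchanged difference of 0.627. Prc1 in RFP- cells lost its call with no filter, with quantile and upper-quartile scaling and without B16F10 RFP- number 11 or MC38 RFP- number 3, and Mcm6 and Pcna lost theirs in RFP- cells with quantile normalization. Depth is known only from the smallest values, by which the B16F10 libraries had fewer reads.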
